A study of Bos taurus with 16 samples.

Results

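The solute carriers are the genes whose symbol is SLC, a family number, A and a member number. By that rule, with SLC27A2 set aside, 82 of the 8448 features (spotted cDNA clones) of a cattle array were found in its probe-to-gene table, and 81 of them, from 62 genes, carried that symbol alone. A ratio in both replicates of every round was present for 77 features of 61 genes, and these were tested. The rule used names only and no measured value.

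The series compared kidney RNA of cattle (Bos taurus) before and after linear amplification, in which RNA is copied by in vitro transcription, with a reference standard RNA on 16 arrays of 2 colours. By its title the series tested the method for use on single bovine embryos. Round 0 is unamplified total RNA, rounds 1, 2 and 3 are the numbers of amplifications, and each round holds replicates 1 and K. Every kidney RNA was hybridised on 2 arrays of opposite dye, which were averaged, so n = 2 RNAs per round. Where a feature had a ratio on only 1 of these 2 arrays, that array alone gave its value, with no dye swap. The reference was amplified for 2 rounds per the labels, so that round 0 alone set unamplified kidney against amplified reference. The labels give neither the tissue of the reference nor the age or breed of the animals, and leave unsaid whether 1 and K stand for different animals or for repeat amplifications of the same RNA. P-values therefore measure only the spread between these RNAs, which may be technical. In such bulk RNA, fewer cells of a type and less RNA per cell cannot be told apart.

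Solute carriers are membrane proteins that move nutrients, ions, metals, nucleosides and organic acids, either down their gradients, by exchange, or coupled to sodium or protons. In the kidney they line the apical and basolateral faces of the tubule and return filtered solutes to the blood, while the mitochondrial carriers of the SLC25 family exchange metabolites across the inner membrane. The sodium-glucose, sodium-phosphate and organic anion carriers best known from the proximal tubule (SLC5A2, SLC34A1 and SLC22A6) were not analysed here.

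Values are given on the log2 scale as kidney over reference after the array's median was set to 0, so that 1 stands for a 2-fold difference and 0 for the typical feature. Which channel is the numerator is not stated, and the direction used here is likely only. It rests on 18 features of 11 kidney marker genes that are no solute carriers, with medians of 2.93, 2.63, 2.80 and 2.49 at rounds 0 to 3, above 0 in both dye orientations. With the channels reversed all signs below would turn. A feature is called at an adjusted p under 0.05 (limma, Benjamini-Hochberg over the 5537 tested features with a listed gene).

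Between 14167 and 16057 of the 16896 spots of an array had a ratio (83.8% to 95%), and the correlation between duplicate spots was 0.496 to 0.822 by array. Members had a ratio in 17 to 32 of their 32 spots over all arrays, and 32 of the 81 had all of them. A value on all 16 arrays was present for 55 of the 81. The 2 arrays of an RNA gave members the same sign in 53.2% (round 1, replicate K) to 81.7% (round 0, replicate K) of cases, beside 55.7% and 75.6% of all listed features. One array, of round 1, replicate 1, with kidney in Cy3, ended in a stretch of whole numbers that were left out, which touched 1 spot of SLC66A3. Stroma markers lay below the reference (median -1.36 at round 0 over 14 features, 10 of them called lower), and placenta markers on both sides of it (median -0.18 over 24 features, 6 called higher and 6 lower). The marker list for red blood cells had 0 features.

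Against the reference, 34 of 77 solute carrier features (44.2%) were called at round 0, 21 higher and 13 lower, beside 38.7% of all tested features, 19.6% higher and 19.1% lower. At round 1, 30 members (39%) were called, 16 higher and 14 lower, beside 37.8% of all, 16.9% higher and 20.9% lower. Round 2 also gave 30 calls, 22 higher and 8 lower, where 35.2% of all features were called, 16.6% higher and 18.6% lower. At round 3 the calls were again 30, with 21 higher and 9 lower, and 35.1% of all features were called, 16.7% higher and 18.4% lower. The share called in all was thus near that of the array, while higher calls took 27.3%, 20.8%, 28.6% and 27.3% of members at rounds 0 to 3, and lower calls 16.9%, 18.2%, 10.4% and 11.7%. The median member ratio was 0.19, 0.29, 0.15 and 0.19 at rounds 0 to 3, beside -0.02, 0.04, 0.02 and 0.01 for all tested features.

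With no centring the median of all tested features moved to 0.65, -0.30, 0.59 and 0.32 at rounds 0 to 3. The calls of members then split 31 higher and 5 lower at round 0, 7 and 14 at round 1, 26 and 4 at round 2, and 22 and 5 at round 3. The balance of higher and lower calls is therefore relative to the median of the array. Left-out RNAs moved the counts as well: without replicate 1 or without replicate K of round 0, 17 members were called at that round. Without the K replicate of round 1, 18 were called at round 1, without that of round 2, 18 at round 2, and without that of round 3, 17 at round 3.

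Over the 8 RNAs, 20 member features (26%) lay above 0 in every RNA, beside 15.4% of all tested features, 10 (13%) lay below 0 in every RNA, beside 18.6%, and 47 fell on both sides. Calls above the reference at all 4 rounds were made for 9 members (11.7%, beside 6.63% of all tested features) and calls below it at all 4 for 4 (5.19%, beside 7.89%), while 25 (32.5%, beside 35.3%) were called at no round. SLC36A2 clone 1 and SLC25A5 were the 2 members (2.6%, beside 3.67%) called on opposite sides of the reference at different rounds, and their round 3 calls held in 1 and 0 of 8 fits without single RNAs (adjusted p 0.0387 to 0.355 and 0.0512 to 0.281). Of the calls against the reference, 12 of 34, 13 of 30, 15 of 30 and 13 of 30 at rounds 0 to 3 were made without each RNA in turn. SLC7A7, SLC40A1 and SLC5A6 clone 2 above the reference, and SLC1A3, SLC2A3 clone 1 and SLC39A8 clone 2 below it, were so called at all 4 rounds.

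**Figure D1:**
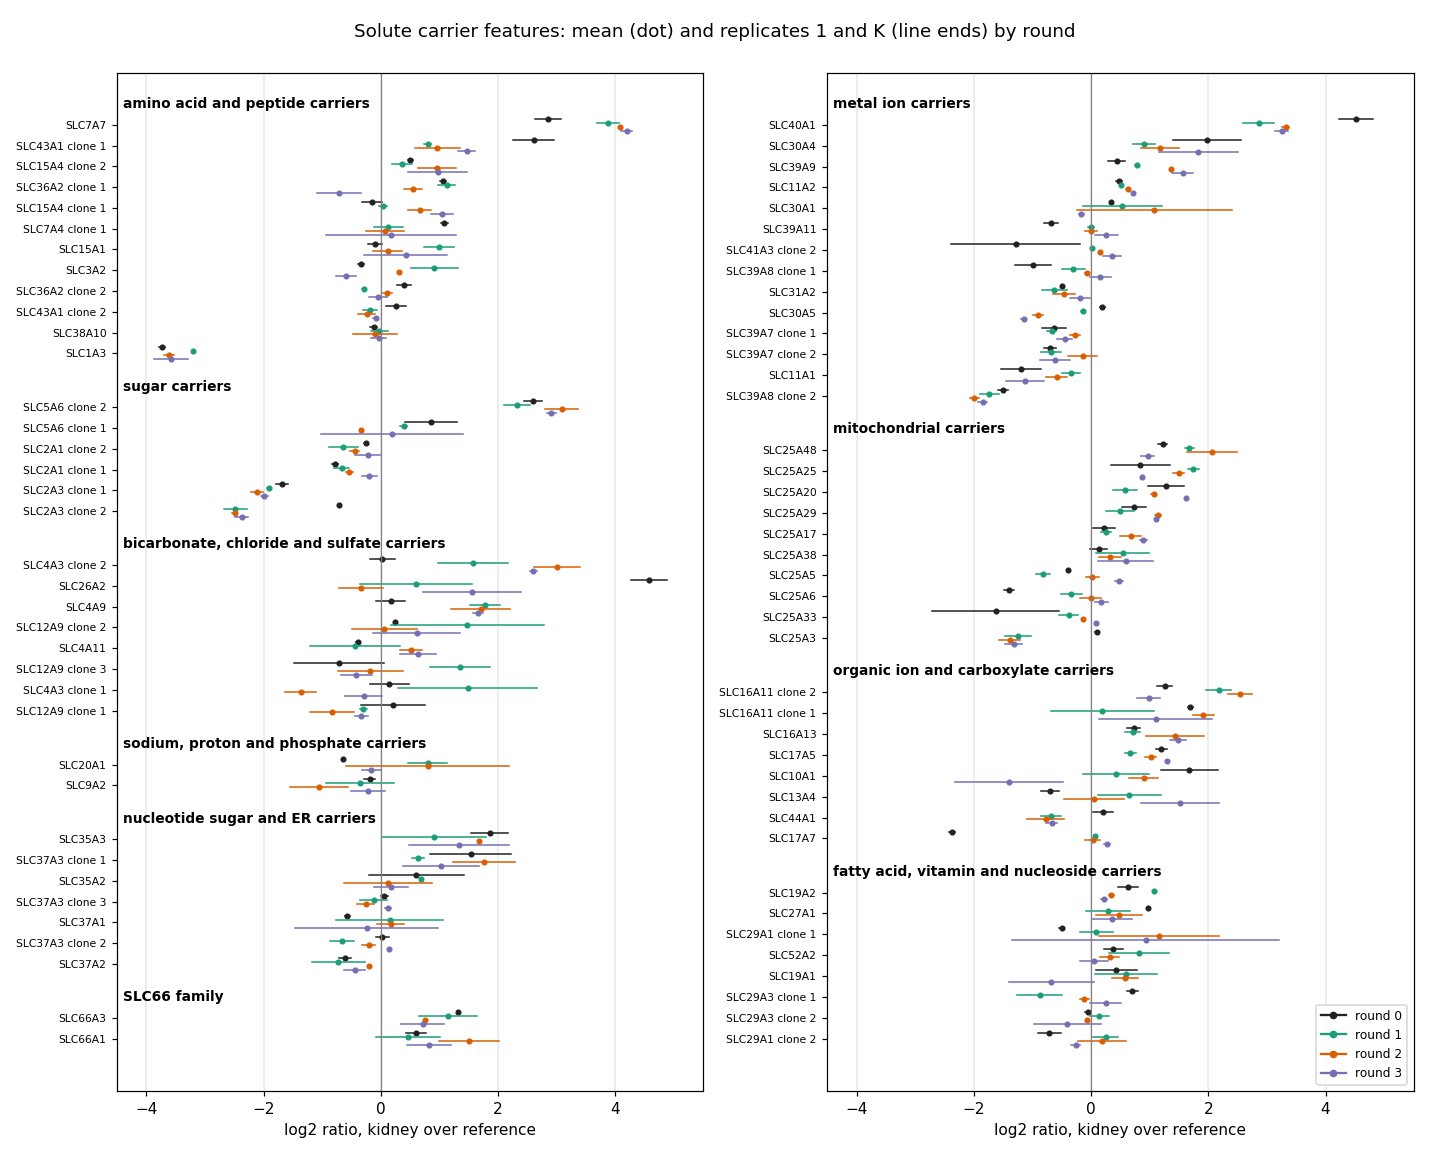
Log2 ratio of kidney over reference (x axis) for the 77 tested solute carrier features (rows, grouped by carrier class and ordered by mean), with a dot for the mean of each round and a line from replicate 1 to replicate K; colours stand for rounds 0 to 3. SLC7A7 and SLC40A1 lie farthest to the right at rounds 1 to 3, SLC26A2 does at round 0, and SLC1A3 lies farthest to the left at all rounds; SLC26A2 and SLC17A7 have a round 0 value far from their other rounds.

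Against round 0, 11 members (14.3%) were called at round 1, 5 higher and 6 lower, beside 13.3% of all tested features, 5.42% higher and 7.87% lower. At round 2, 11 were called (14.3%), 6 higher and 5 lower, beside 11.2% of all, 4.41% higher and 6.79% lower. At round 3, 14 were called (18.2%), 8 higher and 6 lower, beside 11.7% of all, 4.61% higher and 7.1% lower. The 3 comparisons share the round 0 RNAs. Together they took in 20 features of 20 genes (26%, beside 20.5% of all tested features), 5 of them at all 3 rounds, 6 at 2 and 9 at 1, and 0 in both directions. The 5 were SLC7A7, SLC25A6 and SLC17A7, which rose, and SLC25A3 and SLC2A3 clone 2, which fell.

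These counts rest on few RNAs. Without replicate K of round 0, 1 member was called at each of rounds 1, 2 and 3, and without replicate 1 of round 0 the counts were 6, 5 and 4. Leaving out replicate 1 or K of round 1 gave 6 and 2 calls at round 1, of round 2 gave 1 and 2 at round 2, and of round 3 gave 3 and 2 at round 3. The comparison of round 1 gave 7 calls without either RNA of round 3, that of round 2 gave 7 without either of them, and that of round 3 gave 8 and 9 without replicates 1 and K of round 2. Of the 36 single calls, 3 were made without each RNA in turn, and all 3 were of SLC17A7. With no centring the members called numbered 25 at round 1 (1 higher, 24 lower), 2 at round 2 (1 and 1) and 3 at round 3 (1 and 2), and the median of all features was shifted by -1.04, -0.08 and -0.34 against round 0.

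**Figure D2:**
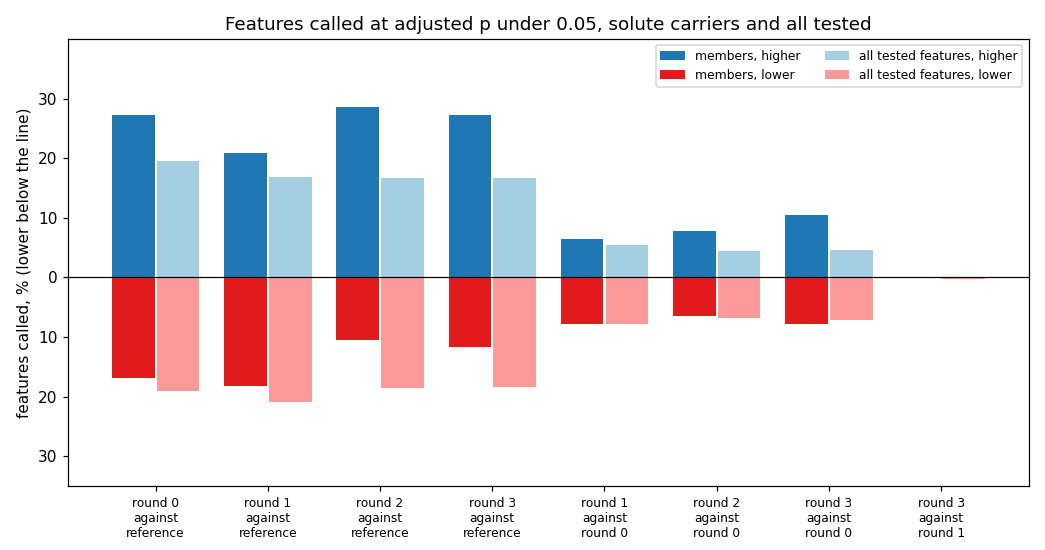
Percent of features called at an adjusted p under 0.05 (y axis; higher above the line, lower below it) in each comparison (x axis), for the 77 solute carrier features and all 5537 tested features. Higher calls against the reference take 20.8% to 28.6% of members and 16.6% to 19.6% of all features, and the comparison of round 3 with round 1 has 0 members.

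**Figure D3:**
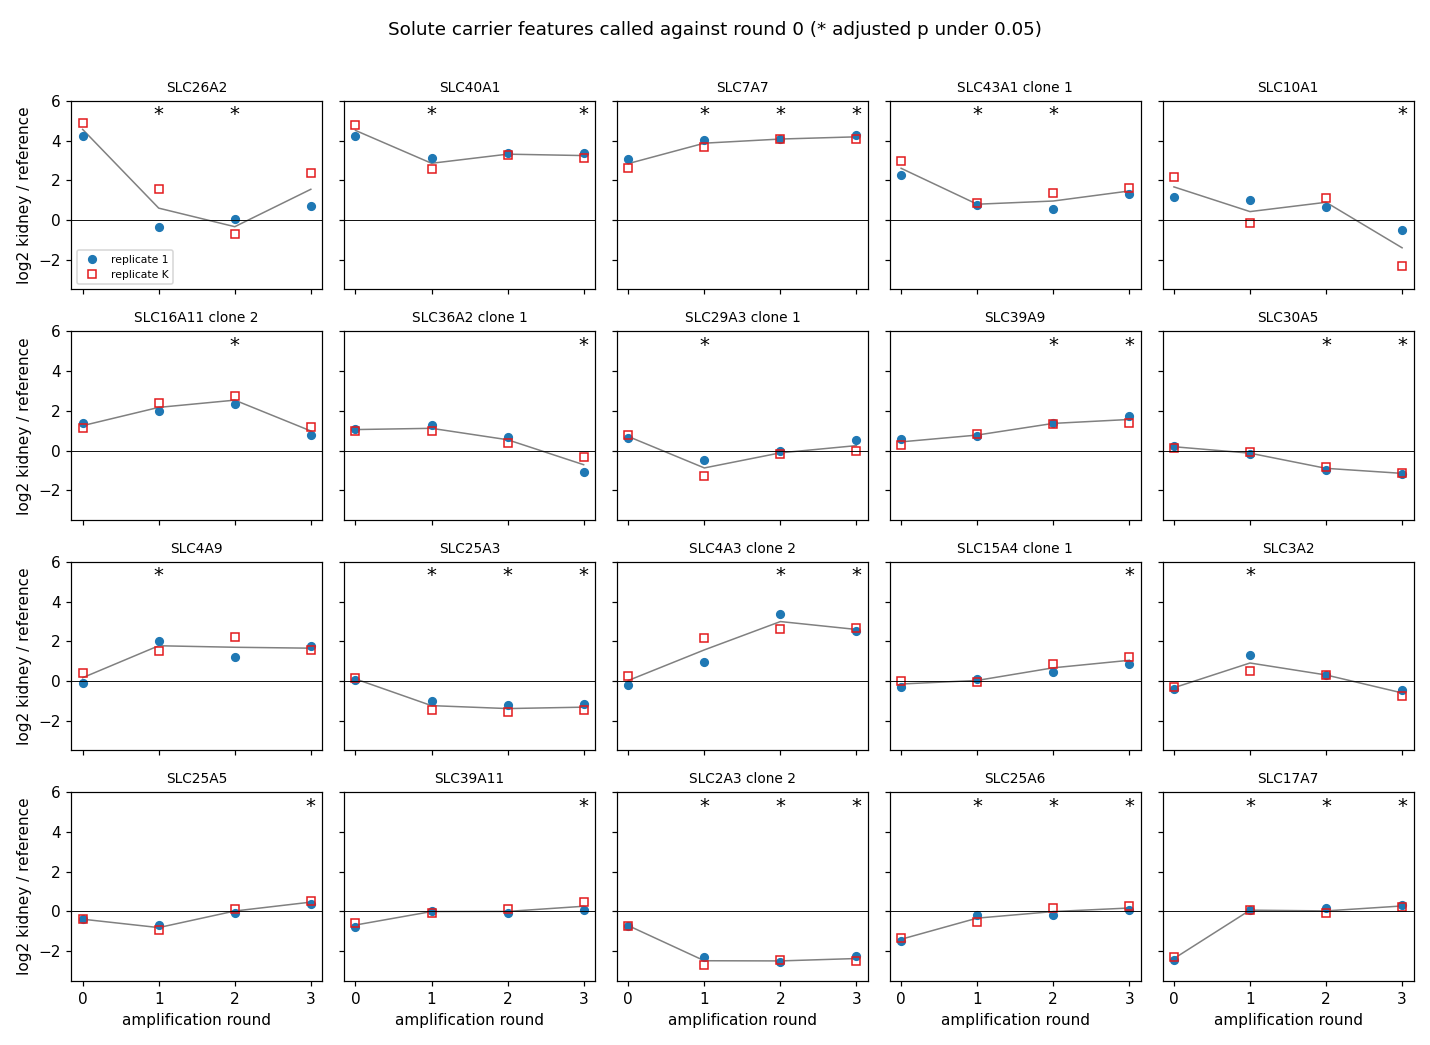
Log2 ratio of kidney over reference (y axis) by amplification round (x axis) for the 20 solute carrier features called against round 0 at 1 or more rounds; circles are replicate 1, squares replicate K, the line joins the means, and an asterisk marks a round with an adjusted p under 0.05. SLC26A2 and SLC40A1 start above 4 and fall, SLC17A7 starts below -2 and sits near 0 from round 1 on.

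Amino acid and peptide carriers had 12 tested features of 9 genes, with medians of 0.33, 0.24, 0.21 and 0.07 at rounds 0 to 3. SLC7A7, the light chain of the basolateral exchanger for cationic amino acids in kidney and intestine, was the highest member over the 4 rounds. It measured 3.06 and 2.63 at round 0 in replicates 1 and K, 4.06 and 3.69 at round 1, 4.10 and 4.06 at round 2, and 4.29 and 4.10 at round 3. Both unamplified RNAs lay below all 6 amplified ones. SLC7A7 rose by 1.03 ± 0.25 (SE) at round 1, 1.24 ± 0.25 at round 2 and 1.35 ± 0.25 at round 3 (limma adjusted p = 0.0437, 0.0321 and 0.0257, n = 2 RNAs per round). The call at round 1 was lost without any single RNA (adjusted p 0.0681 to 0.184), those at rounds 2 and 3 held in 2 and 4 of 8 such fits, and with no centring none held (adjusted p = 0.973, 0.185 and 0.184).

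SLC3A2, the heavy chain that carries SLC7A7 and its relatives to the membrane, took another course. It measured -0.40 and -0.28 at round 0, 1.31 and 0.51 at round 1, 0.30 and 0.31 at round 2, and -0.43 and -0.77 at round 3. Round 1 was the highest round, 1.25 ± 0.30 above round 0 (limma adjusted p = 0.0453), a call that was lost without any single RNA (0.0533 to 0.167) and with no centring (0.685). At round 3 it was back near its round 0 values.

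SLC1A3, a sodium-coupled glutamate transporter best known from glia, was the lowest member. It lay between -3.87 and -3.20 in all 8 RNAs, with means of -3.74, -3.21, -3.62 and -3.58, and was called below the reference at every round (limma adjusted p from 8.29e-05 to 0.000154). No comparison with round 0 called it. SLC36A2, a proton-coupled carrier that takes up glycine and proline in the proximal tubule, was read by 2 clones. Clone 1 held at 1.11 and 1.00 at round 0, 1.26 and 0.97 at round 1 and 0.70 and 0.39 at round 2, then measured -1.08 and -0.35 at round 3, below all other RNAs. It fell by 1.77 ± 0.30 from round 0 to round 3 (limma adjusted p = 0.0217, 0.0364 to 0.0887 without single RNAs, 0.033 with no centring). Clone 2 had means of 0.40, -0.30, 0.11 and -0.05 and was called nowhere, so the fall was seen by 1 of 2 clones.

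SLC43A1, a carrier of large neutral amino acids, measured 2.26 and 2.96 at round 0 with clone 1, 0.74 and 0.86 at round 1, 0.57 and 1.34 at round 2, and 1.32 and 1.61 at round 3. All amplified RNAs were lower than both unamplified ones, with falls of 1.81 ± 0.35 at round 1 and 1.65 ± 0.35 at round 2 (limma adjusted p = 0.0278 and 0.0362). These calls held in 4 and 0 of 8 fits without single RNAs, and with no centring at round 1 (0.0124) but not at round 2 (0.244). With clone 1, the round 0 value of replicate K came from 1 array, with kidney in Cy5. Replicate 1 at round 0 gave 0.84 with kidney in Cy3 and 3.68 in Cy5. Kidney in Cy3 gave 0.605 and 0.642 at round 1 and 0.475 and 0.978 at round 2. Clone 2 of the gene had means between -0.24 and 0.25 throughout. SLC15A4, a lysosomal carrier of histidine and small peptides, rose with clone 1 by 1.20 ± 0.26 at round 3 (adjusted p = 0.036, 0.0516 to 0.149 without single RNAs, 0.311 with no centring), from -0.32 and 0.02 to 0.86 and 1.23. Its clone 2 went from a mean of 0.50 to one of 0.96, called above the reference at rounds 2 and 3 as clone 1 was, but not against round 0. The single tested clone of SLC7A4 had a mean of 1.08 at round 0 and of 0.06 to 0.17 later, with no call. The other 2 features, of SLC15A1 and SLC38A10, had round means between -0.12 and 0.98 and no call.

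Sugar carriers, here the SLC2 and SLC5 families, had 6 features of 3 genes. SLC2A1 and SLC2A3 are facilitative glucose transporters of most cells and of cells with high glucose demand, and all 4 of their features lay below 0 at all 4 rounds, though with no centring 3, 4, 2 and 2 of them did at rounds 0 to 3. SLC2A3 clone 1 measured -1.59 and -1.78 at round 0, -1.95 and -1.88 at round 1, -2.22 and -2.01 at round 2, and -1.92 and -2.05 at round 3, a difference from round 0 that was not called. Clone 2 measured -0.71 and -0.72 at round 0 and between -2.68 and -2.26 in the 6 amplified RNAs. The clones were thus 0.97 apart before amplification and 0.38 apart at round 3.

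The fall of SLC2A3 clone 2 was 1.77 ± 0.22 at round 1, 1.78 ± 0.22 at round 2 and 1.66 ± 0.22 at round 3 (limma adjusted p = 0.00972, 0.0113 and 0.0123). It was called in 7, 5 and 5 of 8 fits without single RNAs, and with no centring at rounds 1 and 3 (adjusted p = 0.00876 and 0.0435) but not at round 2 (0.0666). SLC2A1 was nearer 0: its clones had means of -0.78 and -0.26 at round 0 and of -0.20 and -0.22 at round 3. SLC2A1 clone 1 was called lower at rounds 0 to 2 and clone 2 at round 1, and with no centring the round 2 mean of clone 1 turned to 0.04. SLC5A6, the sodium-dependent carrier of biotin and pantothenate that shares a family with the sodium-glucose carriers, gave split readings. Its clone 2 was called higher at every round, with means of 2.60, 2.32, 3.09 and 2.91, whereas clone 1, with a ratio in 23 of 32 spots, had means of 0.85, 0.39, -0.35 and 0.19 and no call.

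Among bicarbonate, chloride and sulfate carriers (8 features of 5 genes), SLC26A2, a sulfate transporter, had the largest differences from round 0 of any member at rounds 1 and 2. It measured 4.26 and 4.88 at round 0, then -0.35 and 1.55 at round 1, 0.04 and -0.71 at round 2, and 0.71 and 2.38 at round 3. Every amplified RNA was lower than both unamplified ones, and the replicates of rounds 1 and 3 were over 1 apart. The fall was 3.97 ± 0.78 at round 1 and 4.90 ± 0.78 at round 2 (limma adjusted p = 0.0283 and 0.0188, called in 4 of 8 fits without single RNAs each, and also with no centring). The difference at round 3 was not called, and a ratio was present in 20 of its 32 spots. Its round 3 value in replicate K came from 1 array, with kidney in Cy3.

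SLC4A3, a chloride-bicarbonate exchanger, measured -0.20 and 0.25 at round 0 with clone 2, 0.96 and 2.17 at round 1, 3.39 and 2.60 at round 2, and 2.54 and 2.65 at round 3. The rise was 2.97 ± 0.46 at round 2 and 2.57 ± 0.46 at round 3 (limma adjusted p = 0.0175 and 0.025, each called in 4 of 8 fits without single RNAs, and 0.064 and 0.0891 with no centring). Clone 1 of the gene, with a ratio in 18 of 32 spots, had means of 0.14, 1.48, -1.37 and -0.29, so that at round 2 the clones stood 4.37 apart. That round 2 mean of clone 1 was not called, and its arrays split by dye: kidney in Cy3 gave 1.28 and 1.53 and kidney in Cy5 -4.56 and -3.73. SLC4A9, a bicarbonate carrier of kidney intercalated cells, went from -0.09 and 0.42 at round 0 to 2.04 and 1.51 at round 1, 1.19 and 2.21 at round 2 and 1.74 and 1.57 at round 3. All amplified RNAs exceeded both unamplified ones, and SLC4A9 was called above the reference at rounds 1 to 3. Against round 0 only round 1 was called, by 1.61 ± 0.40 (adjusted p = 0.0462, 0.0409 to 0.184 without single RNAs, 0.386 with no centring). The 3 clones of SLC12A9 and SLC4A11 had no call at any round, with means between -0.83 and 1.47.

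Metal ion carriers had 14 tested features of 12 genes, with medians of -0.57, -0.07, -0.03 and 0.00 at rounds 0 to 3. SLC40A1, ferroportin, the cell's iron exporter, was the second highest member. It measured 4.22 and 4.81 at round 0, 3.12 and 2.60 at round 1, 3.38 and 3.26 at round 2, and 3.36 and 3.14 at round 3, so that all amplified RNAs were lower. The fall was 1.66 ± 0.29 at round 1 and 1.27 ± 0.29 at round 3 (limma adjusted p = 0.0223 and 0.0428), called in 6 and 2 of 8 fits without single RNAs, and with no centring at round 1 only (0.011 and 0.0951). The iron importer SLC11A2 was called above the reference at each round at a low and even level, with means of 0.48, 0.50, 0.64 and 0.72. SLC11A1, the divalent metal carrier of phagocyte vesicles, lay below it, with means of -1.20, -0.34, -0.59 and -1.13, called at rounds 0 and 3. For SLC11A1 at round 0, replicate 1 gave -0.737 with kidney in Cy3 and -2.35 in Cy5, and replicate K came from 1 array, in Cy5. At round 3 kidney in Cy3 gave -0.236 and -0.54 and kidney in Cy5 -1.355 and -2.374. The immune marker list, 8 tested features, had medians of -1.37, -0.85, -0.57 and -0.54 with 5, 4, 4 and 4 features called lower, and its part in the SLC11A1 values was not tested.

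The SLC39 family brings zinc into the cytosol and the SLC30 family moves it out. At round 0, 5 of 6 SLC39 features were called below the reference and 0 above, while at round 3, 1 was below and 1 above, beside 19.1% of all tested features lower at round 0 and 18.4% at round 3. This course depends on the centring: without it 1 of the 6 was called lower and 1 higher at round 0, and also at round 3. The round 0 calls of SLC39A8 clone 1 and of both SLC39A7 clones came from arrays that split by dye, as given below. SLC39A9 measured 0.59 and 0.28 at round 0, 0.75 and 0.81 at round 1, 1.38 and 1.36 at round 2 and 1.74 and 1.39 at round 3, with every amplified RNA above both unamplified ones. It rose by 0.93 ± 0.22 at round 2 and 1.13 ± 0.22 at round 3 (limma adjusted p = 0.048 and 0.0308). SLC39A11 went from -0.80 and -0.57 to 0.07 and 0.45 and rose by 0.95 ± 0.23 at round 3 (adjusted p = 0.0474). Without single RNAs these calls held in 0, 2 and 0 of 8 fits, and with no centring in none (adjusted p = 0.354, 0.333 and 0.461).

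The 2 clones of SLC39A8 took different courses. Its clone 1 had means of -0.99, -0.31, -0.06 and 0.16, and its clone 2 of -1.50, -1.73, -1.99 and -1.85, called below the reference at every round, so that the clones were 0.51 apart at round 0 and 2.01 apart at round 3. No difference from round 0 was called for either. The round 0 arrays of SLC39A8 clone 1 split by dye: kidney in Cy3 gave -0.041 and -0.199 and kidney in Cy5 -2.558 and -1.168. At round 3 kidney in Cy3 gave -0.203 and -0.007 and kidney in Cy5 0.157 and 0.684. The 2 clones of SLC39A7, a zinc carrier of the endoplasmic reticulum, kept within 0.164 of each other at every round, from -0.63 and -0.70 at round 0 to -0.45 and -0.61 at round 3. They were called lower at rounds 0 and 1, and with no centring the round 0 mean of clone 1 turned to 0.04. Their round 0 arrays split by dye: kidney in Cy3 gave -0.788 and -1.466 with clone 1 and -0.964 and -1.34 with clone 2. Kidney in Cy5 gave -0.065 and -0.216 with clone 1 and -0.235 and -0.273 with clone 2. At round 1 clone 1 gave -0.985 and -1.464 in Cy3 and -0.202 and -0.038 in Cy5. Clone 2 gave -1.231 and -1.147 in Cy3 and 0.204 and -0.569 in Cy5.

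SLC30A5, a zinc transporter of the early secretory pathway, moved the other way. It measured 0.24 and 0.14 at round 0, -0.17 and -0.10 at round 1, -0.98 and -0.81 at round 2, and -1.19 and -1.11 at round 3, with no overlap between the replicates of any 2 rounds. It fell by 1.09 ± 0.19 at round 2 and 1.34 ± 0.19 at round 3 (limma adjusted p = 0.023 and 0.0143), each called in 4 of 8 fits without single RNAs and in none with no centring (0.188 and 0.0643). SLC30A4, the relative known for zinc in milk, was called above the reference at rounds 0 and 3 with means of 1.98 and 1.83. The tested clone of SLC41A3, a magnesium carrier, had replicates of -0.18 and -2.38 at round 0 and means of 0.02 to 0.36 later. At round 0, replicate 1 came from 1 array, with kidney in Cy3, and replicate K from -1.035 in Cy3 and -3.727 in Cy5. The other 2 features, of SLC30A1 and SLC31A2, had means between -0.62 and 1.08, with SLC31A2 called lower at round 1.

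The SLC25 family had 10 features of 10 genes, 6 of them above 0 at all rounds, with medians of 0.17, 0.37, 0.50 and 0.73 (0.85, 0.04, 1.07 and 1.04 with no centring). Against the reference 4 were called higher and 2 lower at round 0, and 6 and 1 at round 3, beside 19.6% and 19.1% of all tested features at round 0 and 16.7% and 18.4% at round 3. The phosphate carrier SLC25A3, which supplies the matrix with phosphate for ATP synthesis, measured 0.07 and 0.14 at round 0, -1.02 and -1.46 at round 1, -1.21 and -1.57 at round 2, and -1.17 and -1.47 at round 3. It fell by 1.34 ± 0.26 at round 1, and the fall stood at 1.49 ± 0.26 and 1.42 ± 0.26 at rounds 2 and 3 (limma adjusted p = 0.0263, 0.0218 and 0.0257). The calls held in 5, 4 and 4 of 8 fits without single RNAs, and with no centring at round 1 (0.0114) but not at rounds 2 and 3 (0.115 and 0.0643).

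The ADP/ATP carriers SLC25A5 and SLC25A6, which pass ATP out of the matrix, were both higher at round 3 than at round 0. SLC25A6 measured -1.48 and -1.32 at round 0, -0.16 and -0.52 at round 1, -0.19 and 0.18 at round 2, and 0.06 and 0.28 at round 3, and rose by 1.06 ± 0.24, 1.40 ± 0.24 and 1.57 ± 0.24 (limma adjusted p = 0.0401, 0.0225 and 0.0179). The round 0 arrays of SLC25A6 split by dye: kidney in Cy3 gave -0.904 and -0.132 and kidney in Cy5 -2.062 and -2.509. Kidney in Cy3 gave -0.316 and -1.165 at round 1 and -0.183 and 0.025 at round 3. SLC25A5 measured -0.38 and -0.40 at round 0, -0.69 and -0.93 at round 1, -0.09 and 0.14 at round 2, and 0.40 and 0.54 at round 3. It was called below the reference at round 1 and above it at round 3, the latter in 0 of 8 fits without single RNAs (0.0512 to 0.281), and its rise of 0.86 ± 0.21 from round 0 to round 3 was called (adjusted p = 0.0469). Without single RNAs the SLC25A6 calls held in 0, 4 and 4 of 8 fits and that of SLC25A5 in 0 (0.0544 to 0.173), and with no centring none of these calls was made (adjusted p from 0.139 to 0.925). These paralogs are close in sequence, and whether their clones tell them apart was not tested, so their values are uncertain as readings of single genes.

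SLC25A48 and SLC25A25, an ATP-magnesium/phosphate carrier, were called above the reference at all 4 rounds, with means of 1.22, 1.68, 2.06 and 0.96, and of 0.84, 1.75, 1.49 and 0.87. At round 3 the arrays of SLC25A48 split by dye: kidney in Cy3 gave 1.946 and 2.005 and kidney in Cy5 -0.255 and 0.158. The round 0 replicates of SLC25A25 were 1.34 and 0.34, and without single RNAs its calls at rounds 0 and 3 held in 1 and 2 of 8 fits (adjusted p up to 0.332 and 0.163), while those of SLC25A48 held in 6 of 8 at each of these rounds. SLC25A20, which brings acylcarnitines into the matrix, and SLC25A29, a carrier of basic amino acids, were called at rounds 0, 2 and 3, with means of 1.27 and 0.74 at round 0 and of 1.62 and 1.11 at round 3. SLC25A17, a peroxisomal member of the family, was called at rounds 2 and 3, with means of 0.67 and 0.89. SLC25A33 and SLC25A38 lay between -1.63 and 0.59, the former with round 0 replicates of -0.54 and -2.71 and a call below the reference there. Each of these replicates came from 1 array, with kidney in Cy3 and in Cy5, so replicate and dye cannot be told apart.

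**Figure D4:**
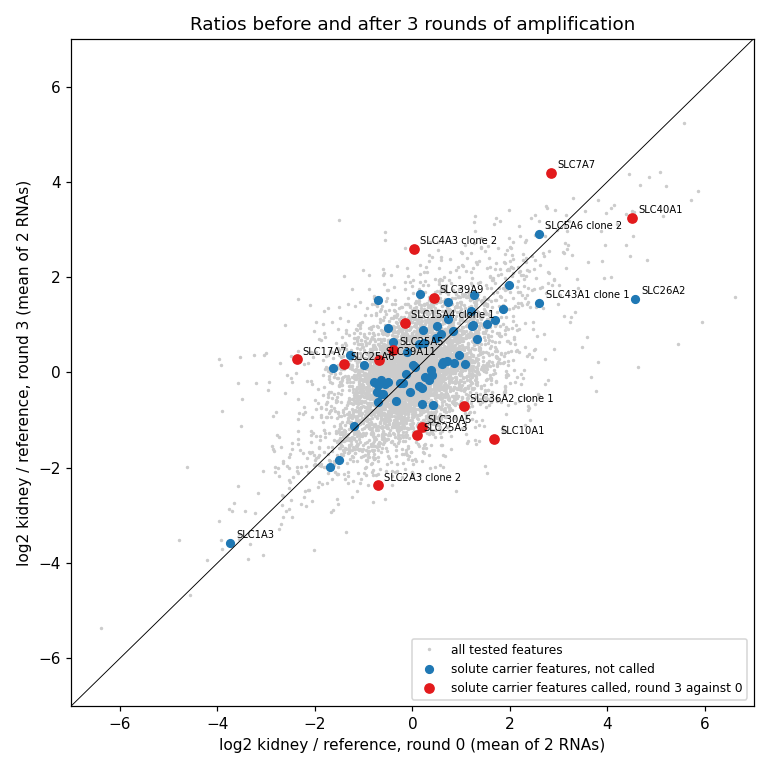
Mean log2 ratio of kidney over reference at round 0 (x axis) and round 3 (y axis), n = 2 RNAs each, for all 5537 tested features (grey) and the 77 solute carrier features (red where called at round 3 against round 0, blue elsewhere); the line marks equal values. SLC7A7 and SLC4A3 clone 2 lie above the line, SLC40A1 and SLC26A2 below it, and SLC17A7 lies at -2.37 and 0.28.

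Organic ion and carboxylate carriers had 8 features of 7 genes. SLC17A7, the carrier that loads glutamate into synaptic vesicles, measured -2.43 and -2.32 at round 0, 0.08 and 0.05 at round 1, 0.15 and -0.10 at round 2, and 0.33 and 0.22 at round 3. The 6 amplified RNAs lay within 0.33 of the median of the array, far from both unamplified ones. The rise was 2.44 ± 0.20, 2.40 ± 0.20 and 2.65 ± 0.20 at rounds 1, 2 and 3 (limma adjusted p = 0.00426, 0.0043 and 0.00354), the smallest adjusted p of any member in each comparison. It was called in all 8 fits without single RNAs at each round (adjusted p 0.0132 to 0.0446) and with no centring (0.0348, 0.0446 and 0.0347), with ratios in all 32 spots. Its relative SLC17A5, the lysosomal sialic acid exporter, was even, with means of 1.20, 0.67, 1.02 and 1.30 and a call above the reference at every round.

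SLC10A1, the sodium-coupled bile acid carrier known from hepatocytes, measured 1.19 and 2.16 at round 0, 1.00 and -0.14 at round 1, 0.66 and 1.14 at round 2, and -0.48 and -2.31 at round 3. Both round 3 RNAs were below all others, a fall of 3.07 ± 0.70 from round 0 (limma adjusted p = 0.0406, called in 1 of 8 fits without single RNAs, 0.0495 to 0.164, and 0.0536 with no centring). For SLC10A1, replicate 1 at round 3 averaged arrays of opposite sign, 1.78 with kidney in Cy3 and -2.75 in Cy5. Replicate K gave -2.77 and -1.85. SLC16A11, of the monocarboxylate family, had means above 0 at every round with both clones. Clone 2 measured 1.37 and 1.13 at round 0, 1.97 and 2.38 at round 1, 2.34 and 2.74 at round 2, and 0.79 and 1.18 at round 3, and rose by 1.29 ± 0.27 at round 2 (adjusted p = 0.036, called in 2 of 8 fits, and 0.106 with no centring). Where both duplicate spots of an array were needed, its round 3 mean turned to -0.32. The round 3 arrays of clone 2 split by dye: kidney in Cy3 gave 2.016 and 3.78 and kidney in Cy5 -0.435 and -1.416. Replicate K of clone 2 at round 0 came from 1 array, with kidney in Cy5.

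Clone 1 of SLC16A11 had means of 1.70, 0.19, 1.91 and 1.10 and no call against round 0, with replicates of 1.07 and -0.68 at round 1. The latter came from 1 array, with kidney in Cy5. At round 3, replicate 1 of this clone gave 2.235 with kidney in Cy3 and -1.954 in Cy5. SLC16A13, its neighbour in the genome, had means of 0.73, 0.71, 1.44 and 1.49 and was called above the reference at rounds 2 and 3. SLC44A1, a choline carrier, went from 0.21 at round 0 to -0.68, -0.78 and -0.67, called below the reference at rounds 1 to 3 but not against round 0. With no centring SLC44A1 was called at no round, with means of 0.88, -1.02, -0.20 and -0.36. Its calls at rounds 1 and 3 also depended on single RNAs. SLC13A4, a sodium-sulfate cotransporter, was called higher at round 3 only, with replicates of 2.18 and 0.84, the former from 1 array, with kidney in Cy3.

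Carriers of vitamins, fatty acids and nucleosides had 8 tested features of 6 genes, and 1 change against round 0 was called. SLC29A3, a lysosomal nucleoside transporter, measured 0.61 and 0.80 at round 0 with clone 1, -0.49 and -1.26 at round 1, -0.04 and -0.20 at round 2 and 0.51 and -0.01 at round 3. It fell by 1.58 ± 0.32 at round 1 (limma adjusted p = 0.0311, 0.0391 to 0.126 without single RNAs, 0.0109 with no centring) and at rounds 2 and 3 lay between its means of rounds 0 and 1, while clone 2 had means of -0.06, 0.14, -0.06 and -0.40. For SLC29A3 clone 1, replicate 1 at round 0 averaged arrays of opposite sign, 1.691 with kidney in Cy3 and -0.464 in Cy5. At round 1 these were -0.571 and -0.416. Replicate K went from 0.896 to -1.659 in Cy3 and from 0.701 to -0.865 in Cy5. SLC29A1, the plasma membrane relative, was called at no round with either clone. Its clone 1 had replicates of 3.20 and -1.34 at round 3. The former came from 1 array with kidney in Cy3 and the latter from 1 with kidney in Cy5, so replicate and dye cannot be told apart. Clone 2 had means of -0.71, 0.25, 0.18 and -0.26. The thiamine carrier SLC19A2 was called higher at rounds 0 and 1, with means of 0.62 and 1.07, and the fatty acid transport protein SLC27A1 at round 0, with a mean of 0.96. The folate carrier SLC19A1 and the riboflavin carrier SLC52A2 had means from -0.68 to 0.81 and no call.

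The remaining classes had no call against round 0. Among carriers of nucleotide sugars and sugar phosphates in the Golgi and endoplasmic reticulum (7 features of 5 genes), SLC35A3, which brings UDP-N-acetylglucosamine into the Golgi, was the highest by its mean over the 4 rounds, with round means of 1.86, 0.90, 1.68 and 1.34 and calls above the reference at rounds 0 and 2. SLC37A3 was read by 3 clones: clone 1 had means of 1.53, 0.63, 1.76 and 1.02 and was called higher at rounds 0 and 2, and clones 2 and 3 stayed between -0.66 and 0.15, with clone 2 called lower at round 1. The other 3 features, of SLC35A2, SLC37A1 and SLC37A2, had means between -0.72 and 0.69 and no call. The phosphate carrier SLC20A1 and the sodium-proton exchanger SLC9A2 were called at no round, with means of -0.65, 0.80, 0.80 and -0.17 and of -0.19, -0.35, -1.06 and -0.23. The round 1 arrays of SLC20A1 split by dye: kidney in Cy3 gave 1.841 and 2.853 and kidney in Cy5 -0.904 and -0.602. At round 2 each replicate of SLC20A1 came from 1 array, 2.178 in Cy3 and -0.589 in Cy5, so replicate and dye cannot be told apart. The 2 members of the SLC66 family were above 0 at all rounds, SLC66A3 with means of 1.32, 1.14, 0.76 and 0.71, called at rounds 0 and 1, and SLC66A1, a lysosomal carrier of cationic amino acids, with means of 0.59, 0.46, 1.50 and 0.81, called at round 2.

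Genes read by several clones show how far a call speaks for a gene. Of 14 genes with 2 or more tested clones, 7 had a clone called against round 0, and 0 had 2 or more. The median gap between the clones of a gene was 0.65 at round 0 and 0.78 at round 3, beside median gaps between the replicates of a member of 0.24 and 0.34. By their round means, all clones were on the same side of the reference at all rounds for 4 genes, SLC2A1, SLC2A3, SLC16A11 and SLC39A7. Clone sequences were not used here, and what sets the clones of a gene apart was not tested.

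**Figure D5:**
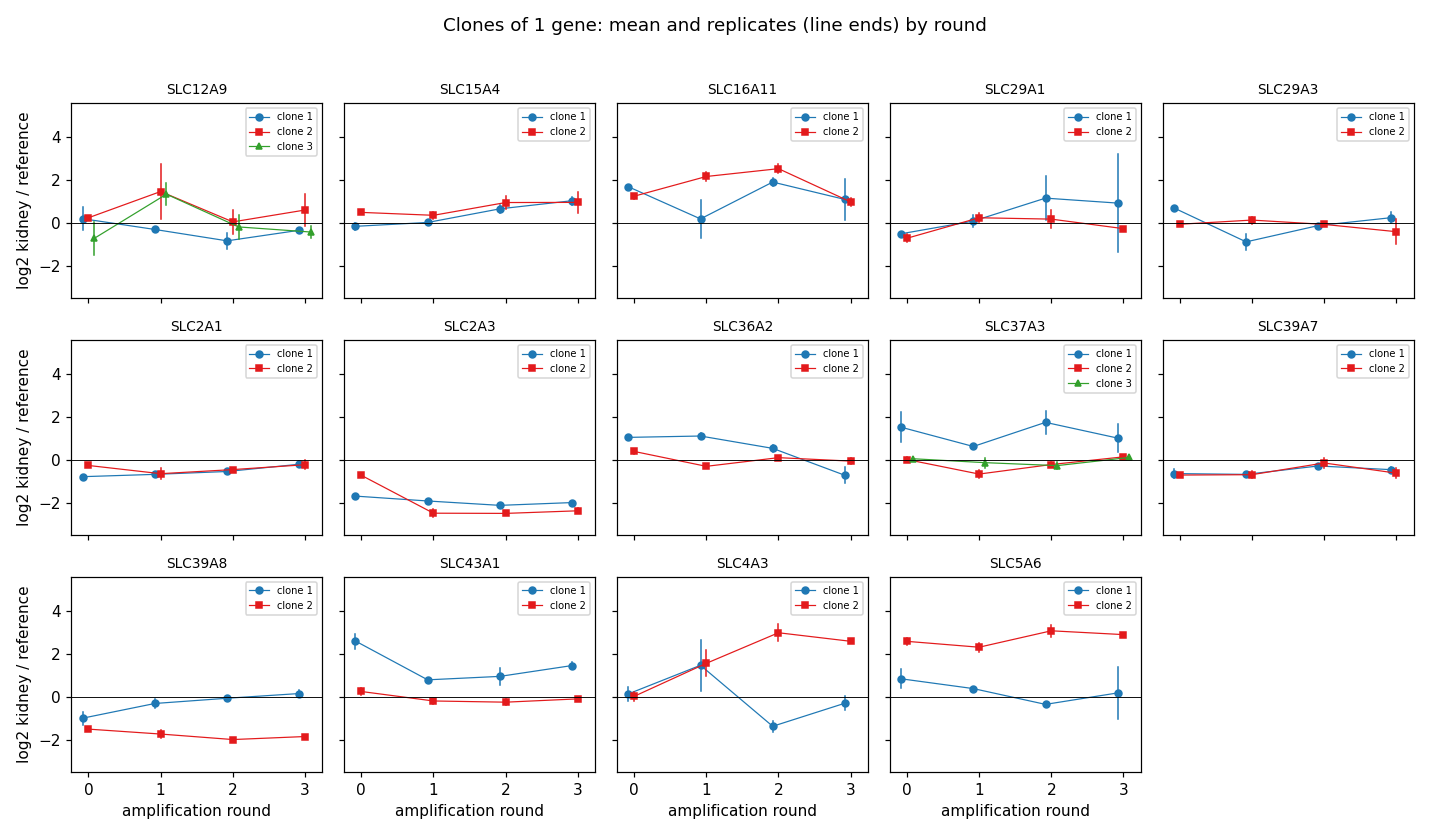
Log2 ratio of kidney over reference (y axis) by amplification round (x axis) for the 14 solute carrier genes with 2 or more tested clones; points are means of 2 RNAs, and vertical lines join replicates 1 and K. The clones of SLC39A7 and SLC2A1 overlie each other at most rounds, while those of SLC4A3, SLC5A6 and SLC39A8 stand 2.01 to 2.89 apart at round 3.

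Over the amplified rounds alone, 0 of 77 members were called at round 3 against round 1 (limma), where 16 of all tested features (0.289%) were, all 16 lower and 0 higher. At an unadjusted p under 0.05 there were 17 members, and the smallest adjusted p was 0.0595, for SLC36A2 clone 1 (a difference of -1.83). Counts of 8 (4 higher and 4 lower) and 4 (1 and 3) came from a fit of all 16 arrays and from the rule that both duplicate spots be present. The median difference was 0.21 over members and 0.06 over all tested features.

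Proteins that drive, hold or regulate solute carriers, and transporters of other names, made up a list of 22 features of 16 genes, all tested. Of them 12, 13, 12 and 12 were called above the reference at rounds 0 to 3, and 1, 1, 1 and 0 below, beside 19.6%, 16.9%, 16.6% and 16.7% of all tested features higher and 19.1%, 20.9%, 18.6% and 18.4% lower. By the mean over the 4 rounds, the farthest from 0 were PDZK1IP1, a small membrane protein of the proximal tubule, with means of 4.67, 4.09, 4.36 and 3.93, and PDZK1, the scaffold that holds apical carriers, with means of 4.14, 3.76, 3.50 and 3.52. Next came CA2, the cytosolic carbonic anhydrase that supplies bicarbonate to the SLC4 carriers, with means of 3.17, 2.76, 2.61 and 2.59. Against round 0, SLCO2B1, an organic anion transporter, went from 0.66 and 0.41 to 2.28 and 2.10 at round 3 and was called higher at rounds 2 and 3. NEDD4, a ubiquitin ligase that removes carriers and channels from the membrane, went from 0.40 and 0.53 to -0.89 and -0.56 at round 1 and was called lower at rounds 1 and 2. The other 20 features were not called against round 0 at any round.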

How the data were processed

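Kidney RNAs were measured on 2-colour cDNA arrays. The deposited values of 15 arrays are log2 channel ratios. The deposited column of the array of round 1, replicate 1, Cy3 is such a ratio except for its last 67 rows, whole numbers that were left out, so that it is called a score as the authors deposited it. Scanner and any correction or normalization were not given in the sources used here. Numbers beyond 10 in size, among them the code 16.61, were treated as missing. The 16896 spots were averaged as duplicates into 8448 features. Arrays were turned to kidney over reference. The median of the features with a listed gene (5693) was subtracted, and the arrays of a dye swap were averaged. Where only 1 of them had a ratio, it was used alone. Rounds were compared with limma 3.58.1 (lmFit and eBayes, 4 residual and 2.4 prior degrees of freedom) under R 4.3.3 (files read by data.table, version 1.17.8), on the 5537 listed features measured in all 8 RNAs, with Benjamini-Hochberg adjustment. The script was tested on simulated data. Clones are numbered in spot order. All 62 member genes had the same symbol in the current gene table.

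Members and lists were chosen with earlier results of these data known. Named with values are members called against round 0 or at round 3 against 1, those with a mean beyond 2 in size, all clones of genes with several, and otherwise the largest of a class; others named beside them were chosen after their values were seen. Alternatives changed the centring, scaling, rounds fitted, array level fit, missing limit, duplicate rule, features tested, use of the score array, each RNA and the replicate block. Same-labelled replicates were not shown to pair: residuals correlated over 0.1 in 1 of 6 pairs of rounds. The number of arrays limits the precision, and no signal intensities were used.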

Additional observations from a re-analysis of the deposited data

How the results depend on the processing

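Counts of members called stayed within 1.5 times of the reported count under scaling of the arrays, the wider limit for missing numbers, and small-number spot ratios treated as missing, an alternative chosen after seeing the data. With the replicate block as a term, 32, 32, 30 and 28 members were called against the reference at rounds 0 to 3, 8, 10 and 12 against round 0, and 0 at round 3 against round 1; the pairing is a shared label only. With no centring, 25, 2 and 3 were called against round 0 at rounds 1, 2 and 3. With only the rounds of the comparison fitted, which leaves fewer samples to estimate the spread, the counts were 14 and 17 against the reference at rounds 1 and 3, and 0, 4 and 5 against round 0. Testing all features gave 7 at round 1 against round 0. Without the round 1, replicate 1, Cy3 array, 5 and 6 were called at rounds 1 and 3 against round 0. Round 3 against round 1 gave 8 with all 16 arrays and 4 with both duplicate spots needed. The cause of these shifts was not tested. Leaving out each RNA in turn, the counts against the reference ranged from 17 to 34, 18 to 31, 18 to 32 and 17 to 28 at rounds 0 to 3, those against round 0 from 1 to 8, 1 to 9 and 1 to 11, and that of round 3 against round 1 stayed at 0. The signs that turned were those of SLC39A7 clone 1 at round 0 (0.042) and SLC2A1 clone 1 at round 2 (0.038) with no centring, and SLC16A11 clone 2 at round 3 (-0.32) with both duplicate spots needed.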

Other observations

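Of the 81 solute carrier features, 4 lacked a ratio in 1 RNA and were not tested. SLC43A1 clone 3 measured -3.24 in replicate K of round 0, the one unamplified RNA with a ratio, and between 0.23 and 0.86 in the 6 amplified RNAs. SLC41A3 clone 1, of a magnesium carrier, measured -2.77 in replicate K of round 0 (1 array, with kidney in Cy5) and between -0.33 and 1.40 in the amplified RNAs. SLC7A4 clone 2 lay between 0.24 and 2.92 in its 7 RNAs with a ratio, which came from 17 of 32 spots. SLC46A3, a lysosomal carrier, lay between -1.62 and 0.80, with ratios in 18 of 32 spots. The feature with a second symbol in the table was not used.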
